A study of Mus musculus with 203 samples.

Results

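Expression of 8 genes of the mucus-making (goblet) cell was followed in the airways and parenchyma of mouse lungs: *Muc5ac*, *Muc5b*, *Clca1*, *Agr2*, *Spdef*, *Foxa3*, *Tff2* and *Itln1*. The genes were chosen by name, with earlier results of these data known, from a table of 43346 gene identifiers. All 8 were present and passed the filter on low counts used for the tests reported here. RNA came from female BALB/c mice with a labelled age of 18 to 20 weeks, whose airways and parenchyma had been separated by blunt dissection. The libraries formed 20 groups of 10, except for 11 PBS airway and 12 PBS parenchyma libraries at 3 weeks. At 3 weeks, mice had received house dust mite (HDM) extract or phosphate-buffered saline (PBS) intranasally on 5 days per week. At 11 weeks, HDM had been continued 3 times per week through weeks 4 to 11 or replaced by PBS throughout, and mice had breathed air (AIR) or cigarette smoke (CS) on 5 days per week for 8 weeks. Separate 11-week groups had also received dexamethasone (DEX), a glucocorticoid, in week 11, so the 16 groups at that time carried every combination of HDM or PBS, AIR or CS, with or without DEX, in both tissues. HDM with AIR served as a model of asthma, PBS with CS as one of chronic obstructive pulmonary disease, and HDM with CS as one of their overlap.

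Airway mucus is a gel of secreted mucins, very large glycoproteins that are assembled into polymers in the endoplasmic reticulum and Golgi and stored in granules of secretory cells. In the mouse lung, *Muc5b* is the mucin that healthy club cells make throughout the airways, whereas *Muc5ac* is scarce until type 2 cytokines such as interleukin-13 turn club cells towards a goblet state. Of the others, *Clca1* encodes a secreted metalloprotease-like protein of mucus, *Tff2* a trefoil peptide that is packed with mucins, *Itln1* a lectin that binds microbial sugars, and *Agr2* a disulfide isomerase of the endoplasmic reticulum that mucins need for folding. *Spdef* and *Foxa3* encode transcription factors that drive the goblet cell programme.

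All 8 are protein-coding genes, and no other annotated gene overlapped any of them. On mm10, *Muc5ac* (ENSMUSG00000037974.11) spans chr7:141788972-141819231 and *Muc5b* (ENSMUSG00000066108.7) its neighbour chr7:141839070-141873084, both on the plus strand. *Clca1* (ENSMUSG00000028255.5, chr3:145003817-145032776, minus strand) lies among related *Clca* genes, *Agr2* (ENSMUSG00000020581.7, chr12:35992907-36004087, plus strand) beside *Agr3*, and *Tff2* (ENSMUSG00000024028.7, chr17:31141049-31144282, minus strand) beside the other trefoil genes. *Itln1* (ENSMUSG00000038209.8) spans chr1:171518122-171535294 on the minus strand. Many strains, BALB/c among them, are known to carry a close intelectin copy that the C57BL/6-derived reference lacks, so counts for *Itln1* may hold reads of both copies and are uncertain. *Spdef* (ENSMUSG00000024215.9, chr17:27714352-27728955) and *Foxa3* (ENSMUSG00000040891.5, chr7:19013284-19023538) lie on the minus strand.

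The upstream sequence of the regulators *Spdef* and *Foxa3* is shown because the products of both genes bind DNA and a FOXA-type motif could be looked for in each. RefSeq entries (GRCm38.p6) were matched for 4 of the 8 genes, *Itln1*, *Foxa3*, *Agr2* and *Spdef*. Each sequence below runs 5′ to 3′ on the gene's strand over 230 bases, from 250 to 21 bases before the RefSeq start. Capitals mark the only motif matches found in that window, the FOXA-type letters TATTTAC on the opposite strand of *Spdef*, read as GTAAATA, and TATAAA in *Foxa3*.
Spdef, chr17:27728972-27729201, minus strand: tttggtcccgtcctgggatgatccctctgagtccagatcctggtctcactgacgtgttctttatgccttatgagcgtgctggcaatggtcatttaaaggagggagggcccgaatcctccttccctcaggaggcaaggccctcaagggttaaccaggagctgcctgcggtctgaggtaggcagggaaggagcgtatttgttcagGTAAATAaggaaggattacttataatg
Foxa3, chr7:19023560-19023789, minus strand: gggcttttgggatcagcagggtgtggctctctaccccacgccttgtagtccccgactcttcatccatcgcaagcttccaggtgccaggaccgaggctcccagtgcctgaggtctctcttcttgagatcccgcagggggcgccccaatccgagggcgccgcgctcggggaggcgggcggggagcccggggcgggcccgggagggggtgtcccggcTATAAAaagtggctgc
The match began at position -47 in *Spdef* and at -36 in *Foxa3*, counted from the start. Both strands of the 250 bases before the start were searched for 5 motifs, and over all 32851 RefSeq promoters the share with a match was 3.17% for the FOXA form TGTTTAC, 2.73% for TATTTAC, 5.85% for a STAT6-type motif of TTC and GAA spaced by 4 bases, 6.91% for the ETS-type CCGGAAG and 12.4% for TATAAA. The second FOXA form and TATAAA were added to the search after the sequences had been read, and the matches are a description of these letters alone.

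Total counts per library ranged from 13003154 to 40240733, with a median of 28090684, and levels are given as CPM (counts scaled to library size) after TMM normalization over all libraries. The dissection was checked with markers: the summed CPM of 5 basal cell genes, which mark large airways, exceeded that of every parenchyma library in 100 of 101 airway libraries, and the exception was X109 (HDM with AIR, 11 weeks) at 4.19. Smooth muscle markers did so in only 76 of 101 airway libraries. Alveolar type II markers overlapped between the tissues, at 3963 to 35782 CPM in airway and 16676 to 43504 CPM in parenchyma libraries. Airway libraries thus also held alveolar RNA. Pan-epithelial markers summed to 659 to 1427 CPM in airway and 618 to 2218 CPM in parenchyma libraries. A few libraries stood apart in the mucus genes themselves. Airway library X5 (PBS with AIR) held 963 CPM of *Clca1* and airway library X81 (PBS, 3 weeks) 441 CPM, against medians of 30.9 and 17.5 in their groups, and parenchyma library X82 (PBS, 3 weeks) held 179.2 CPM against 2.32. The basal marker sum was 358.9 CPM in X5, the highest of all libraries, and 236 CPM in X81, the highest of its group. These libraries kept their labels, and the calls that change without them are given beside the results.

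In unexposed lungs, 7 of the 8 genes at 3 weeks and all 8 at 11 weeks were higher in airway than in parenchyma. A call required a Benjamini-Hochberg adjusted p under 0.05 over all genes tested in limma-voom, with a log2 fold change (log2FC) of at least 1 in either direction, and among all genes 10.0% at 3 weeks and 13.4% at 11 weeks were called higher in airway. At 3 weeks the largest difference was in *Agr2* (log2FC 3.70 ± 0.51 SE, adjusted p = 9.5e-08), from a median of 2.66 CPM in PBS parenchyma to 33.96 CPM in PBS airway. *Muc5b* had a median of 35.4 CPM in parenchyma and 233 CPM in airway (log2FC 2.84 ± 0.24, adjusted p = 8.2e-12). *Itln1*, with medians of 1.23 and 3.75 CPM, did not pass the limma-voom test at 3 weeks (1.35 ± 0.91, adjusted p = 0.21), while edgeR (1.38, adjusted p = 0.013) and DESeq2 (1.42, adjusted p = 0.0017) called it, as limma-voom did at 11 weeks (2.02 ± 0.58, adjusted p = 0.0018). *Tff2*, *Spdef* and *Foxa3* separated the tissues completely at both times, with no overlap between airway and parenchyma libraries. At 11 weeks 6 of the 8 genes did so. The share of all genes without overlap was not computed, for this or for any later comparison. In bulk tissue, here as in all comparisons that follow, more or fewer mucus cells and more or less RNA per cell cannot be told apart.

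Per kilobase of exon, the order of the genes in unexposed airways was headed by *Tff2*, with a median of 97.97 CPM per kb, followed by *Agr2* at 26.3, *Muc5b* at 15.5 and *Clca1* at 4.64 CPM per kb. *Itln1* (3.28 CPM per kb), *Spdef* (2.49), *Foxa3* (1.51) and *Muc5ac* (0.739) came last. After 3 weeks of HDM the airway order was *Clca1* at 990 CPM per kb, *Tff2* at 333, *Itln1* at 115.6, *Agr2* at 88.5, *Muc5ac* at 24.2, *Muc5b* at 22.3, *Spdef* at 5.95 and *Foxa3* at 2.36. *Clca1* thus moved from the fourth to the first place and *Muc5ac* from the last to the fifth. For each of the 8 genes the highest of the 20 group medians was that of HDM airway at 3 weeks. The lowest median was in parenchyma in every case, in PBS with AIR and DEX for *Muc5ac* and *Muc5b*, in PBS with CS and DEX for *Clca1*, *Agr2*, *Tff2* and *Itln1*, and in PBS with AIR for *Spdef* and *Foxa3*. Ordered by median, all 19 neighbouring pairs of groups overlapped in their libraries for every gene.

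**Figure D1:**
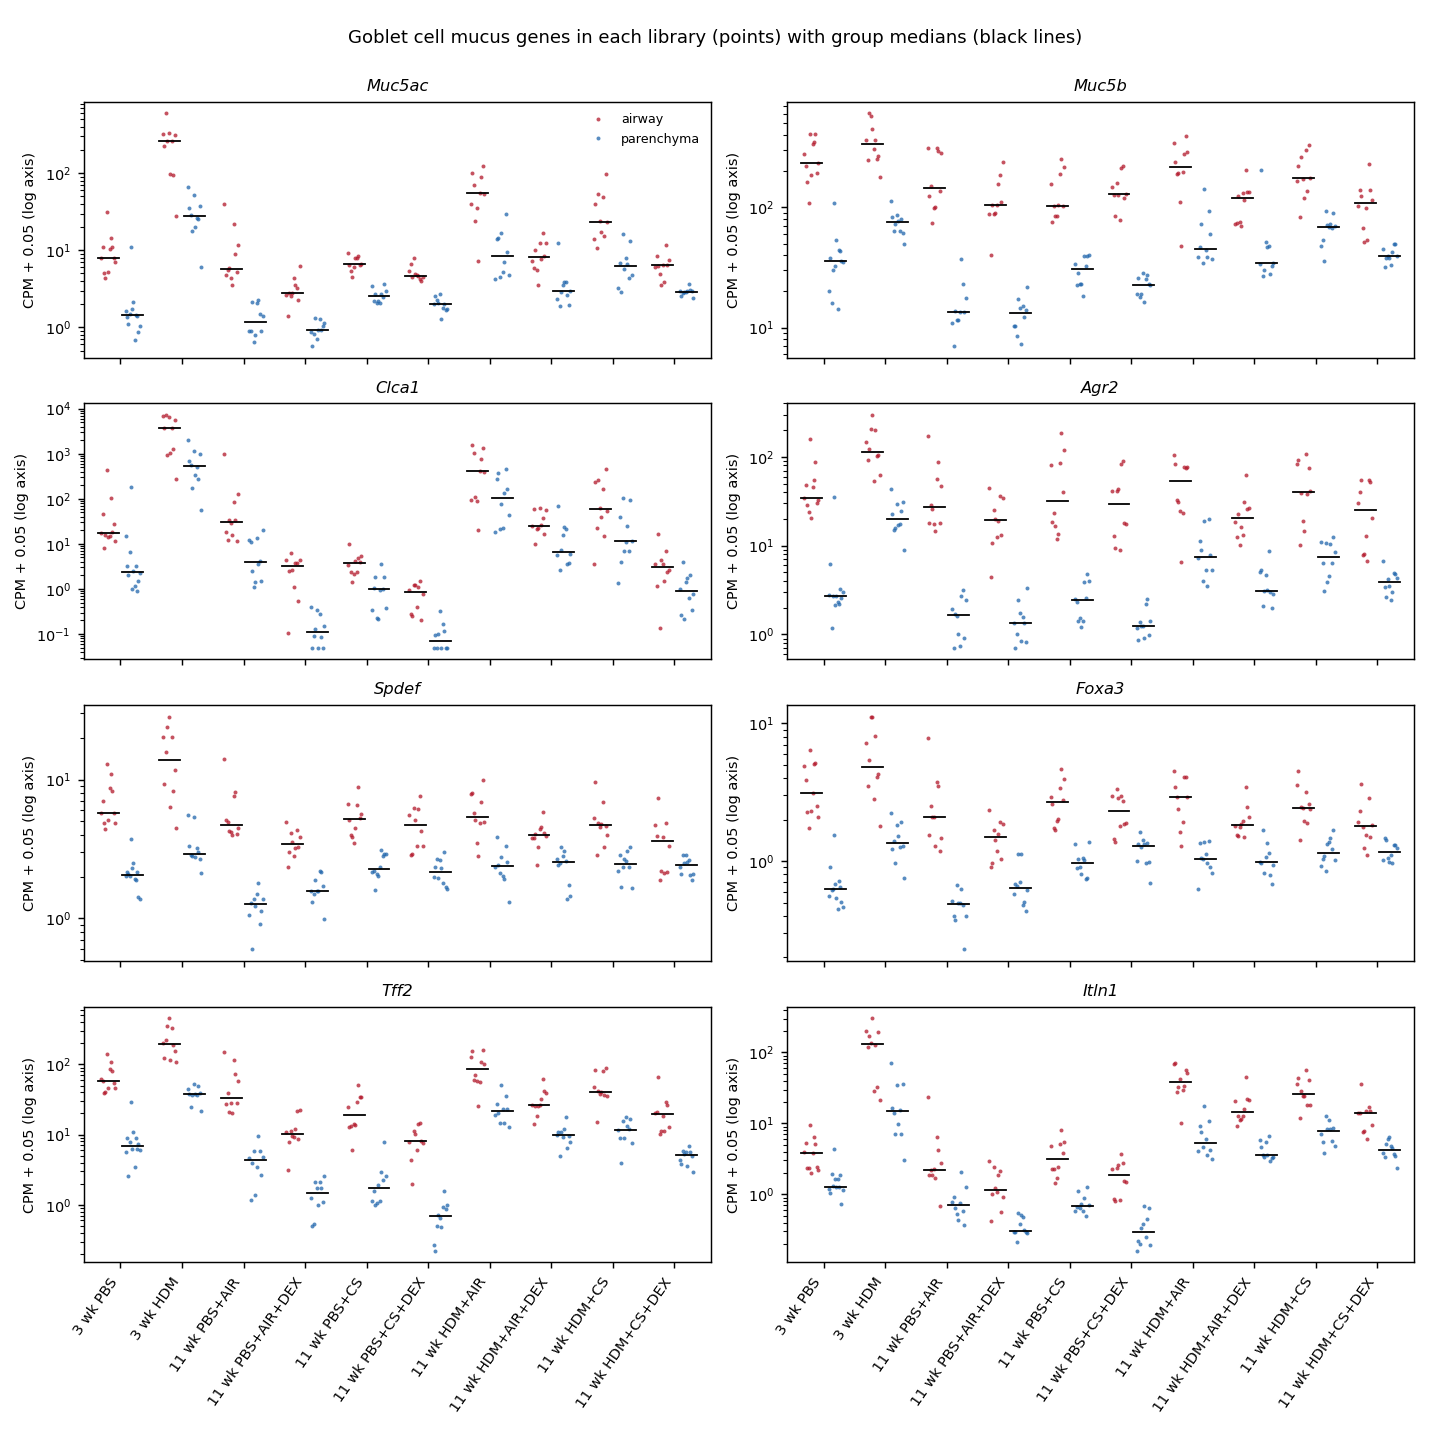
Each panel plots 1 gene, with CPM plus 0.05 on a log axis against the 20 groups (airway red, parenchyma blue), a point per library and a line at each group median. The 3-week HDM airway group holds the highest median of every gene, and *Clca1* spans from under 1 CPM to 7229 CPM.

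After 3 weeks, HDM raised 5 of the 8 genes in the airways, where 12.1% of all genes tested were called higher: *Muc5ac*, *Clca1*, *Agr2*, *Tff2* and *Itln1*. *Muc5ac*, the inducible mucin, had a lowest, median and highest level of 4.26, 7.95 and 31.5 CPM in the 11 PBS libraries. In the 10 HDM libraries these were 27.95, 260 and 596 CPM. Only the lowest HDM library, X183, fell inside the PBS range, whose top was X81, and the other 9 exceeded every PBS library. The log2FC was 4.39 ± 0.42 (SE; adjusted p = 3.3e-12). *Muc5b*, the constitutive mucin, ran from 108.6 through a median of 233 to 411 CPM in PBS and from 179.3 through 334 to 604 CPM in HDM airway. Its groups overlapped broadly and its log2FC of 0.44 ± 0.26 did not pass the test (adjusted p = 0.13).

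*Clca1* had the largest change of the 8 genes. PBS airway libraries held 7.99 to 441 CPM of it with a median of 17.5, and HDM airway libraries 269 to 7229 CPM with a median of 3740, that is 0.0249% to 0.757% of all counts in a library. The groups overlapped only through X81 on the PBS side and X183 on the HDM side, and the log2FC was 6.46 ± 0.66 (adjusted p = 1.8e-11). *Itln1* rose from 1.94, 3.75 and 9.38 CPM (lowest, median, highest) to 21.1, 131.9 and 304 CPM, without overlap (log2FC 4.73 ± 0.57, adjusted p = 1.3e-09). *Tff2* rose from 39.6, 57.2 and 141.7 CPM to 107.98, 194.6 and 454 CPM, with 7 of 10 HDM libraries above all PBS libraries (1.62 ± 0.24, adjusted p = 1.2e-07). The isomerase *Agr2* had 20.6, 33.96 and 159.3 CPM in PBS and 53.4, 114.3 and 296 CPM in HDM, and here only 3 of 10 HDM libraries exceeded X81 (1.49 ± 0.30, adjusted p = 2.2e-05).

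The transcription factor genes had smaller fold changes than the 5 genes called, and *Spdef* had a median of 5.73 CPM in PBS and 13.7 CPM in HDM airway, with ranges of 4.34 to 12.9 and 4.399 to 28.4 CPM. Its log2FC of 0.86 ± 0.24 passed the adjusted p (0.0019) but not the fold threshold, whereas edgeR (1.04) and DESeq2 (1.06) both called it. *Foxa3* ran from 1.69 through 3.08 to 6.41 CPM in PBS and from 1.76 through 4.80 to 11.2 CPM in HDM airway (0.58 ± 0.25, adjusted p = 0.035), again short of the fold threshold.

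In parenchyma, HDM raised 7 of the 8 genes at 3 weeks, all but *Spdef*, against 14.5% of all genes. *Clca1* climbed from a median of 2.32 CPM (0.858 to 179.2) to 537 CPM (55.6 to 2022), with 8 of 10 HDM libraries above X82, the highest PBS library (log2FC 6.93 ± 0.93, adjusted p = 9.3e-09). *Muc5ac* went from a median of 1.38 CPM (0.629 to 10.9) to 27.6 CPM (6.01 to 65.4), a log2FC of 4.08 ± 0.74 (adjusted p = 3.8e-06), and *Itln1* from 1.23 to 14.8 CPM (3.32 ± 0.83, adjusted p = 0.00041). *Agr2* rose by 2.58 ± 0.53 and *Tff2* by 2.29 ± 0.33 on the log2 scale. *Muc5b*, which had not passed in airway, had medians of 35.4 and 74.97 CPM and a log2FC just past the threshold (1.03 ± 0.24, adjusted p = 0.00015). That call was lost with edgeR's quasi-likelihood test (log2FC 0.87) and DESeq2 (log2FC 0.97). *Foxa3* rose by 1.04 ± 0.45 (adjusted p = 0.034), while *Spdef* had medians of 2.01 and 2.88 CPM and did not pass (0.61 ± 0.41, adjusted p = 0.17).

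The HDM effect itself was compared between tissues with an interaction term, for which a call required the adjusted p alone. None of the 8 genes was called at 3 weeks by limma-voom, against 17.3% of all genes, none had an unadjusted p under 0.05, and edgeR and DESeq2 called none. The intervals were wide, and the test treated the libraries of both tissues as independent. The difference, airway less parenchyma, was 0.31 on the log2 scale for *Muc5ac* (95% confidence interval -1.35 to 1.97), -0.47 for *Clca1* (-2.71 to 1.76) and -0.59 for *Muc5b* (-1.29 to 0.10), so differences of more than 2-fold remained possible for each of these genes.

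The ratio of the inducible to the constitutive mucin was taken in each library from CPM per kb. In PBS airway at 3 weeks the *Muc5ac* to *Muc5b* ratio had a median of 0.043 and a range of 0.037 to 0.108. In HDM airway the median was 1.01 and the range 0.217 to 1.64, without overlap. Per unit length, *Muc5b* was the higher of the mucins in every PBS library, and *Muc5ac* was the higher one in part of the HDM airway libraries. In parenchyma the median went from 0.058 to 0.587 (0.170 to 0.842). At 11 weeks with AIR, the airway ratio was 0.055 in PBS (0.042 to 0.181) and 0.415 in HDM (0.161 to 0.582), where no library reached equal levels. In HDM airway the median ratio was 0.197 with CS, 0.110 with DEX and 0.087 with CS and DEX. These ratios rest on the same libraries as the fold changes and are given as a description.

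**Figure D2:**
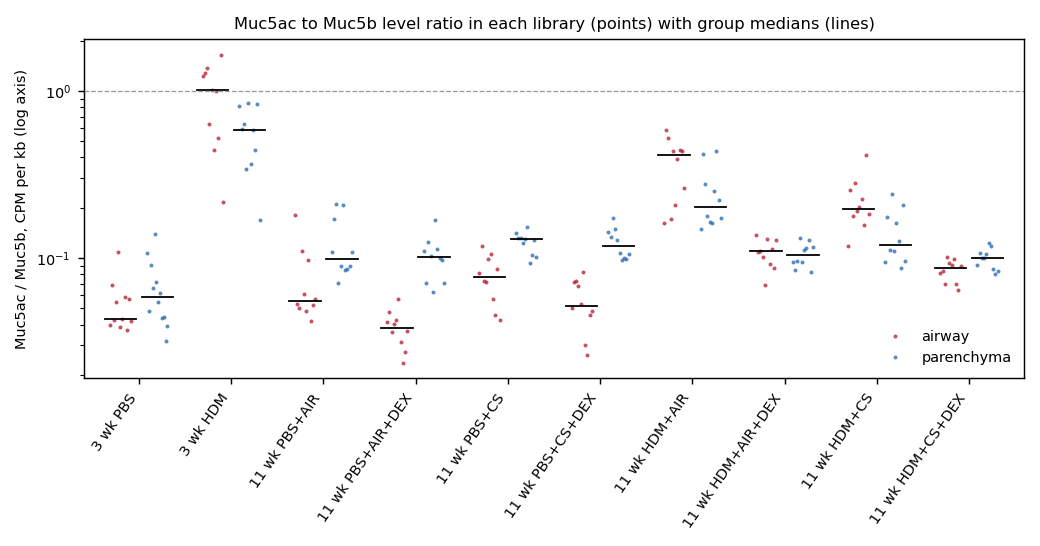
The ratio of *Muc5ac* to *Muc5b* (CPM per kb, log axis) is plotted for every library by group, with airway and parenchyma side by side and lines at the group medians. The dashed line marks equal levels, which were exceeded only in HDM airway libraries at 3 weeks.

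Genes that serve mucus cells were read from function lists that had been chosen with earlier results of these data known. The counts below are those called in HDM against PBS at 3 weeks in airway, and they describe these lists only. Of the co-secreted goblet cell proteins, 4 of 6 tested rose and none fell, with a median log2FC of 2.88 against -0.07 for all genes. Among all genes tested 12.1% were called higher and 11.8% lower in this comparison. *Tff1*, another trefoil peptide, had a log2FC of 4.96, *Retnlb*, a resistin-like protein of goblet cells, 4.16, and *Gp2*, a glycoprotein of secretory granules, 3.41, and their median levels went from 0.137 to 7.60, from 0.0808 to 2.14 and from 13.0 to 113.1 CPM. Of the other mucins, 2 of 4 tested rose, the membrane mucins *Muc13* (4.00) and *Muc4* (1.07), among 9 genes in that list, of which *Muc16* was not analysed here. Of 18 genes of mucin O-glycosylation, 9 rose and 1 fell. The sialyltransferase *St6galnac1* (4.203), the core-branching enzyme *Gcnt3* (3.56) and the initiating transferase *Galnt6* (1.97) rose most, and *B3gnt6* (-1.01) fell. Of 12 genes of mucin folding and endoplasmic reticulum stress, 6 rose and none fell, led by *Sdf2l1* (1.72), the chaperone *Hyou1* (1.48) and *Ern2* (1.34), the stress sensor of mucus-making epithelia.

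The upstream signals and the transport genes were mixed. Of 16 regulators, 2 rose and 1 fell in airway: *Il13*, whose product induces goblet cells, rose from a median of 0 to 0.772 CPM (log2FC 4.93), *Il4* rose by 1.52 and *Hes1*, a Notch target, fell by 1.25 on the log2 scale. The list's median was -0.42, and its share of higher genes was close to that of all genes. Of 8 ion transport genes, 1 rose, the anion exchanger *Slc26a4*, from 4.72 to 113.1 CPM (4.07), and 2 fell, the sodium channel subunits *Scnn1b* (-1.66) and *Scnn1g* (-1.30). Of 12 granule exocytosis genes, only the calcium sensor *Syt2* rose (2.10), with a list median of 0.19. The counts of these 3 lists lay near the background share of 12.1% and say nothing particular of them.

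Parenchyma gave similar counts, with 5 of 6 co-secreted proteins, 10 of 18 O-glycosylation genes, 7 of 12 folding genes, 1 of 4 other mucins, 1 of 16 regulators, 1 of 12 exocytosis genes and 1 of 8 ion transport genes called higher, beside an all-gene median of -0.13 and shares of all genes of 14.5% higher and 15.1% lower. There 4 regulators, 2 ion transport genes, 1 glycosylation gene and 1 folding gene fell. The HDM effect differed between tissues by the interaction test for single list genes. It was larger in airway for *Muc13* (difference 2.87, adjusted p = 0.027) and larger in parenchyma for the fucosyltransferase *Fut2* (-2.21, adjusted p = 7.2e-05) and the secreted lipid-binding protein *Bpifb1* (-1.49, adjusted p = 0.017), whose parenchymal median went from 11.7 to 78.7 CPM. The difference was also called for *B3gnt3* (-0.81), *Gcnt4* (-1.44), *Kdelr3* (-0.75), *Il13ra1* (-0.82), *Ehf* (-0.55) and *Rab3d* (-0.30), and, with the opposite sign, for *Galnt4* (0.67), *Foxa1* (0.59), *Egfr* (0.49), *Ano1* (0.47), *Galnt3* (0.45), *Dnajb9* (0.31) and *Ern1* (0.27), several of which were lower with HDM in both tissues. At 11 weeks with AIR, 4 of 6 co-secreted proteins were called higher in airway and 6 of 6 in parenchyma, as were 6 and 9 of 18 O-glycosylation genes, against 10.6% and 13.0% of all genes.

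**Figure D3:**
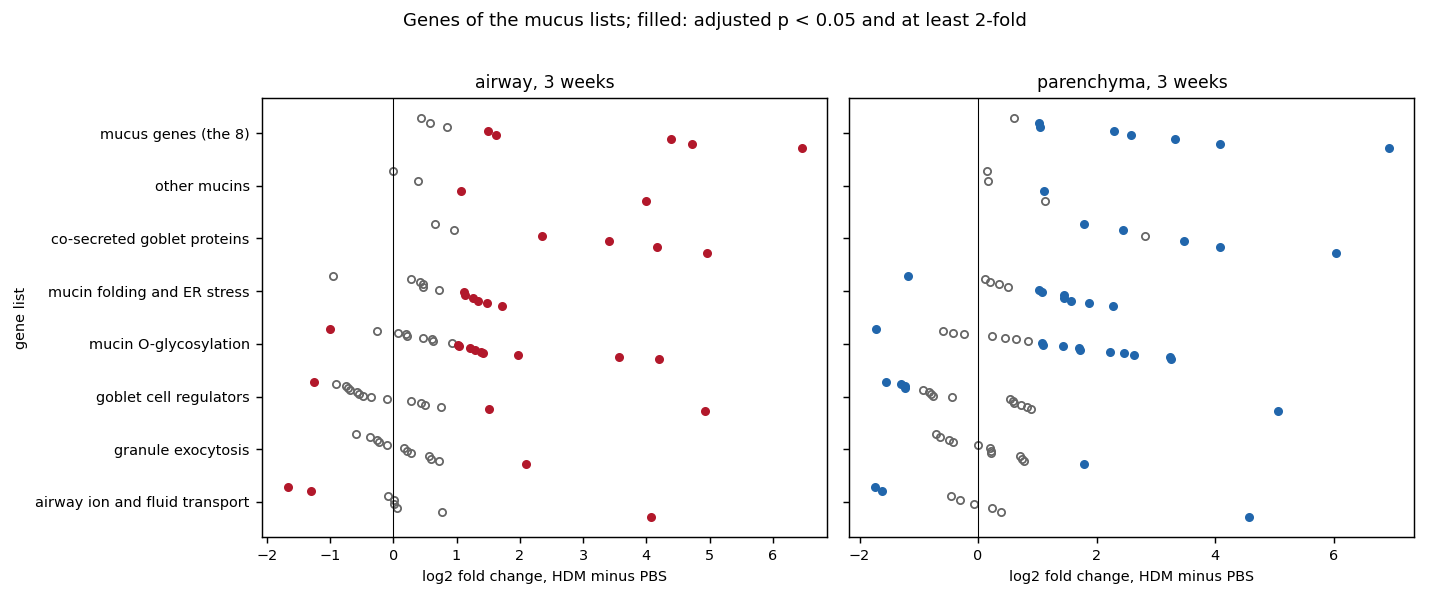
The log2 fold changes of HDM against PBS at 3 weeks are plotted for the 8 genes and each tested gene of the function lists, by tissue, with calls filled. *Tff1*, a co-secreted protein, gives the highest point of the function lists in both tissues, at 4.96 in airway and 6.04 in parenchyma.

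Markers of other airway cells moved with HDM as well. The summed level of 6 club cell genes had a median of 63686 CPM in PBS airway (34156 to 93718) and 22735 CPM in HDM airway (14714 to 34499) at 3 weeks, and 5 of the 6 genes fell. Basal cell markers had medians of 79.9 CPM (44.8 to 236) and 34.2 CPM (12.1 to 242), with 1 of 5 genes called higher and 1 lower, and none of the 5 pan-epithelial markers was called. The summed level of 8 ciliated cell markers went from a median of 2160 to 1307 CPM, with none called. Submucosal gland markers went from 2.36 CPM (1.30 to 7.14) to 12.98 CPM (8.90 to 17.8), but only 1 of those 5 genes was expressed enough to be tested, and tuft cell markers from 17.1 to 44.97 CPM, with 1 of 2 tested genes called higher. The part of these shifts in the mucus gene results was not tested.

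With HDM continued to 11 weeks in AIR, 3 of the 8 genes were higher in airway, *Itln1*, *Muc5ac* and *Clca1*, against 10.6% of all genes. *Muc5ac* held 3.51, 5.67 and 40.4 CPM (lowest, median, highest) in PBS and 7.18, 54.8 and 124.4 CPM in HDM airway, with 6 of 10 HDM libraries above X5, the highest PBS library (log2FC 2.63 ± 0.29, adjusted p = 8.6e-15). *Clca1* had medians of 30.9 and 406 CPM and ranges of 11.4 to 963 and 20.5 to 1594 CPM, with 3 of 10 HDM libraries above X5 (2.93 ± 0.55, adjusted p = 1.2e-06). *Itln1* gave the clearest separation, from 0.628 to 23.3 CPM in PBS (median 2.18) and from 10.1 to 71.1 CPM in HDM (median 37.9; 3.80 ± 0.33, adjusted p = 6.2e-21). *Tff2*, with medians of 33.4 and 86.5 CPM, passed the adjusted p (0.0013) but had a log2FC of 0.92, which became 1.13 and a call without X5. *Agr2*, *Spdef*, *Foxa3* and *Muc5b* had log2FC between 0.03 and 0.29 and did not pass the test. With sample quality weights *Tff2* was called (1.34), *Agr2* had 0.88 (adjusted p = 0.017), *Foxa3* 0.63 (0.0015) and *Muc5b* 0.66 (0.016), the latter 3 below the fold threshold. Without X5 these 3 genes had log2FC of 0.56, 0.49 and 0.40 with adjusted p of 0.19, 0.018 and 0.19.

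In parenchyma all 8 genes were higher at 11 weeks in HDM with AIR, against 13.0% of all genes. *Muc5ac* ran from 0.589 to 2.24 CPM in PBS (median 1.11) and from 4.18 to 29.4 CPM in HDM (median 8.25), without overlap (log2FC 3.00 ± 0.55, adjusted p = 7.4e-07). *Muc5b* rose from a median of 13.3 to 45.4 CPM (1.99 ± 0.29, adjusted p = 7.5e-10), and *Agr2* from 1.60 to 7.47 CPM without overlap (2.51 ± 0.85, adjusted p = 0.0076). *Tff2* and *Itln1* did not overlap between the groups either, and 9 of 10 HDM libraries of *Clca1*, *Muc5b*, *Spdef* and *Foxa3* exceeded all PBS libraries. How many of all genes lacked overlap was not computed. *Spdef* went from 1.22 to 2.35 CPM (1.08 ± 0.26, adjusted p = 0.00019) and *Foxa3* from 0.436 to 0.988 CPM (1.33 ± 0.31, adjusted p = 7.7e-05), small absolute levels in both cases.

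The HDM effect in AIR at 11 weeks differed between tissues for 4 of the 8 genes, each larger in parenchyma, a direction in which 14.9% of all genes were called. The difference, airway less parenchyma, was -1.70 ± 0.39 for *Muc5b* (adjusted p = 0.00042), -1.79 ± 0.52 for *Tff2* (0.005), -1.05 ± 0.31 for *Spdef* (0.0071) and -1.05 ± 0.36 for *Foxa3* (0.02). Without X5 the *Foxa3* difference was -0.85 with an adjusted p of 0.058, and its call was also lost with sample quality weights. With edgeR and with DESeq2 6 genes were called, *Agr2* (-2.38 and -2.40) and *Clca1* (-2.37 and -2.41) being the additions, where limma-voom gave -2.22 (adjusted p = 0.061) and -1.49 (0.26). The cell markers shifted unequally in this comparison: in airway, smooth muscle markers had a median of 1082 CPM in PBS and 385 CPM in HDM, with 5 of 5 genes lower, and club cell markers one of 59729 and 22080 CPM, while in parenchyma smooth muscle markers had medians of 199.99 and 234 CPM and club cell markers 23634 and 14478 CPM. Basal cell markers went from 63.4 to 43.98 CPM in airway and from 2.15 to 3.86 CPM in parenchyma, and within airway groups the basal sum varied with the mucus genes, as described further on. Their part in the tissue difference was not tested.

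Against the 3-week effect, the 11-week HDM effect in airway was smaller for 4 of the 8 genes, tested over all libraries in one fit, with 13.9% of all genes called in that direction. *Clca1* had a difference of -3.59 ± 0.86 (adjusted p = 0.00056), *Muc5ac* of -1.81 ± 0.46 (0.0012), *Spdef* of -0.89 ± 0.26 (0.0057) and *Agr2* of -1.26 ± 0.50 (0.048). Without the 3 high PBS libraries X5, X81 and X82, *Agr2* had an adjusted p of 0.053. With edgeR and DESeq2 *Agr2* was not called and *Itln1* was. The HDM regimen also differed between the times, in days per week as well as in duration, so frequency and duration cannot be told apart. In parenchyma, limma-voom called none of the 8, against 42.4% of all genes, while 2 had an unadjusted p under 0.05, edgeR and DESeq2 each called *Muc5b*, and *Clca1* was called without X5, X81 and X82 (-3.19, adjusted p = 0.023).

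Cigarette smoke lowered *Clca1* and left the mucin genes of the airway without a call. The 11-week contrasts that follow share groups with each other and with those above, so they are not independent of one another. In PBS airway, 2 of the 8 genes were lower with CS than with AIR, against 1.06% of all genes. All 10 CS libraries of *Clca1*, at 1.35 to 9.79 CPM with a median of 3.64, lay below the lowest AIR library at 11.4 CPM (log2FC -3.54 ± 0.84, adjusted p = 0.00098). *Tff2* fell by 1.17 ± 0.28 on the log2 scale, from a median of 33.4 to 19.1 CPM (adjusted p = 0.0012), or by 0.96 without X5, which ended the call. *Muc5ac*, with medians of 5.67 and 6.51 CPM, did not pass (-0.21 ± 0.36, adjusted p = 0.78).

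In HDM airway, adding CS lowered 1 gene, against 1.97% of all genes. *Clca1* went from a median of 406 to one of 58.1 CPM (log2FC -2.31 ± 0.54, adjusted p = 0.00092), although the ranges of 20.5 to 1594 and 3.55 to 461 CPM overlapped. *Muc5ac* (-0.80 ± 0.23, adjusted p = 0.0079) and *Tff2* (-0.87 ± 0.26, adjusted p = 0.011) passed the adjusted p without reaching the fold threshold, and both were called with sample quality weights (-1.11 and -1.07). *Muc5ac* had medians of 54.8 and 23.6 CPM in these groups.

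In PBS parenchyma, 3 genes were higher with CS, against 4.21% of all genes: *Spdef* (log2FC 1.02 ± 0.27, adjusted p = 0.0011), *Foxa3* (1.18 ± 0.31, adjusted p = 0.0013) and *Muc5b* (1.03 ± 0.30, adjusted p = 0.0032). *Foxa3* libraries did not overlap, at 0.179 to 0.625 CPM in AIR and 0.693 to 1.33 CPM in CS, and 9 of 10 CS libraries of *Spdef* lay above all AIR libraries. With edgeR and DESeq2 *Clca1* was called lower and *Muc5ac* higher. The *Muc5b* call was lost with edgeR, DESeq2 and sample quality weights, and *Spdef* (0.97) and *Muc5b* lost theirs without X173 and X174, whose codes break the alternation of tissues seen in all other codes. Adding CS to HDM in parenchyma lowered *Clca1* (-2.68 ± 0.59, adjusted p = 0.0002; medians 106.7 and 11.4 CPM) and *Tff2* (-1.09 ± 0.33, adjusted p = 0.0086; medians 21.6 and 11.8 CPM), against 3.46% of all genes.

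Mice given both HDM and CS still differed from those given CS alone. In airway, 4 genes were higher, against 3.90% of all genes: *Clca1* (log2FC 4.16 ± 0.83), *Itln1* (3.10 ± 0.32), *Muc5ac* (2.04 ± 0.31) and *Tff2* (1.21 ± 0.28). *Muc5ac* and *Itln1* did not overlap, *Muc5ac* running from 4.39 to 9.19 CPM with CS and from 10.7 to 98.97 CPM with HDM and CS. In parenchyma, 4 genes were higher, against 2.71% of all genes, *Clca1*, *Itln1*, *Tff2* and *Muc5b*. *Muc5ac* had a log2FC of 1.29 there and an adjusted p of 0.058. It was called by edgeR (1.48, adjusted p = 0.00042) and DESeq2 (1.46, adjusted p = 0.00012), as was *Agr2* (1.64 and 1.62), whose limma-voom value was 1.66 ± 0.77 (adjusted p = 0.17).

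Whether the HDM effect differed between CS and AIR was tested directly. In parenchyma it was smaller under CS for *Spdef* (-1.04 ± 0.35, adjusted p = 0.012) and *Foxa3* (-1.04 ± 0.40, adjusted p = 0.033), a direction in which 18.7% of all genes were called. A count of 2 of the 8 genes lay near that share and says nothing particular of the set. CS alone had raised these 2 genes, and their medians in parenchyma were 2.22 and 0.915 CPM with CS and 2.42 and 1.10 CPM with HDM and CS. With edgeR and DESeq2 *Muc5ac* was called as well. *Spdef* and *Foxa3* were not called when the libraries of both times shared one fit (adjusted p = 0.053 and 0.082). In airway, limma-voom called none, against 19.1% of all genes, and none had an unadjusted p under 0.05, while edgeR and DESeq2 each called *Clca1*.

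Dexamethasone lowered *Clca1*, *Tff2* and *Muc5ac* most often among the 8 genes by limma-voom's calls. In HDM airway with AIR, 4 genes were lower with DEX, against 5.07% of all genes. *Muc5ac* ran from 7.18 through a median of 54.8 to 124.4 CPM without DEX and from 3.44 through 8.01 to 16.7 CPM with it. Of the untreated libraries only X109 reached into the treated range, and the log2FC was -2.55 ± 0.29 (adjusted p = 6.9e-13). *Clca1* went from a median of 406 to 25.3 CPM (-3.43 ± 0.56, adjusted p = 2.2e-07), *Tff2* from 86.5 to 26.3 CPM (-1.51 ± 0.27, adjusted p = 2e-06) and *Itln1* from 37.9 to 14.3 CPM (-1.22 ± 0.21, adjusted p = 1.5e-06). *Muc5b* (-0.92 ± 0.26, adjusted p = 0.0036) and *Agr2* (-0.99 ± 0.39, adjusted p = 0.046) stayed just short of the fold threshold, and edgeR, DESeq2 and limma-voom with sample quality weights called both, at -1.02 to -1.17 for *Muc5b* and -1.17 to -1.37 for *Agr2*. Between these groups, without and with DEX, basal cell markers had medians of 43.98 CPM (4.19 to 96.5) and 26.1 CPM (12.8 to 90.1). Alveolar type II markers had 15826 and 25349 CPM, and club cell markers 22080 and 20911 CPM. The part of such shifts in the mucus gene results was not tested.

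Genes were also lower with DEX in mice without HDM. In PBS airway with AIR, 3 genes were lower, against 1.85% of all genes. All 10 *Clca1* libraries with DEX (0.057 to 6.16 CPM, median 3.15) lay below all without it (log2FC -4.53 ± 0.99, adjusted p = 0.00036). *Tff2* fell by 2.09 ± 0.31 on the log2 scale (adjusted p = 1.8e-07), from a median of 33.4 to 10.1 CPM, and *Muc5ac* by 1.42 ± 0.42 (adjusted p = 0.011), from 5.67 to 2.75 CPM. The *Muc5ac* call was lost with a stricter filter, with sample quality weights and in a fit of these airway libraries alone. With edgeR and DESeq2 *Agr2* and *Itln1* were called as well.

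Under smoke, DEX lowered 4 genes in HDM airway, against 1.93% of all genes. *Muc5ac* went from 10.7 to 98.97 CPM (median 23.6) to 3.46 to 11.6 CPM (median 6.32), with 9 of 10 treated libraries below all untreated ones (log2FC -2.16 ± 0.32, adjusted p = 8.5e-08). *Clca1* fell by 4.73 ± 0.92 on the log2 scale, from a median of 58.1 to 3.04 CPM, *Tff2* by 1.26 ± 0.28 and *Itln1* by 1.14 ± 0.23. With sample quality weights *Agr2* and *Muc5b* were called too. In PBS airway with CS, 1 gene was lower, *Tff2* (-1.38 ± 0.36, adjusted p = 0.0036), against 2.29% of all genes. *Clca1* there had medians of 3.64 and 0.809 CPM and an SE of 1.55 around its log2FC of -2.53, and did not pass (adjusted p = 0.32), while edgeR and DESeq2 called it.

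In parenchyma, DEX lowered 3 genes in HDM with AIR, against 5.40% of all genes, *Clca1* (log2FC -3.49 ± 0.67), *Muc5ac* (-1.63 ± 0.43) and *Tff2* (-1.29 ± 0.35), and 1 in HDM with CS, *Clca1* (-4.24 ± 1.35, adjusted p = 0.033), against 1.92%. *Muc5ac* fell from a median of 8.25 to 2.87 CPM, and 9 of 10 treated libraries lay below all untreated ones. With edgeR and DESeq2 *Agr2* was also called in HDM with AIR, and *Muc5ac* and *Tff2* in HDM with CS. For *Muc5ac* the tenth library was X32, the library of lowest depth, at 12.5 CPM. In PBS parenchyma limma-voom called none with AIR, against 3.16% of all genes, with 2 genes at an unadjusted p under 0.05 and 3 calls each by edgeR and DESeq2, *Clca1*, *Tff2* and *Itln1*. It called none with CS, against 2.75%, with none at an unadjusted p under 0.05, 2 calls by edgeR, *Clca1* and *Tff2*, and 3 by DESeq2, which added *Itln1*. Depth limited these results: *Clca1* was at 3 counts or fewer in 7 of 10 libraries of PBS with AIR and DEX and in 9 of 10 of PBS with CS and DEX.

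HDM still raised part of the set in DEX-treated mice. In airway with AIR, 4 genes were higher in HDM with DEX than in PBS with DEX, against 7.95% of all genes, *Clca1* (log2FC 4.03 ± 0.99), *Itln1* (3.79 ± 0.43), *Tff2* (1.503 ± 0.32) and *Muc5ac* (1.499 ± 0.42), and *Clca1* and *Itln1* did not overlap. With CS and DEX, 2 were higher, *Itln1* (2.92 ± 0.40) and *Tff2* (1.34 ± 0.36), against 4.59%, and edgeR and DESeq2 added *Clca1*. In parenchyma 5 genes were higher with AIR and DEX, against 8.54%, and 2 with CS and DEX, *Itln1* and *Tff2*, against 3.35%. There edgeR and DESeq2 added *Agr2* in both settings and *Clca1* with CS. In that last setting *Muc5b* had no overlap between the groups, at 16.2 to 28.4 and 32.01 to 49.5 CPM, and a log2FC of 0.89 below the fold threshold.

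The difference in the HDM effect between DEX and no DEX was not called for any of the 8 genes in AIR by limma-voom. In airway, 4.62% of all genes were called, 1 of the 8 had an unadjusted p under 0.05, *Muc5ac* (-1.13 ± 0.51, adjusted p = 0.21), and edgeR and DESeq2 called none. In parenchyma, 12.4% of all genes were called, none of the 8 had an unadjusted p under 0.05, edgeR called none and DESeq2 called *Clca1* (adjusted p = 0.047).

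By limma-voom's calls over the 10 comparisons of HDM with PBS, *Itln1* was called higher in all 10, *Tff2* in 9, *Clca1* in 8 and *Muc5ac* in 7. *Muc5b* was called in 4, all of them in parenchyma, *Agr2* in 3, *Foxa3* in 2 and *Spdef* in 1. Over the 8 comparisons of DEX with no DEX, *Clca1* and *Tff2* were each called lower in 5, *Muc5ac* in 4 and *Itln1* in 2, and the others in none. Over the 4 comparisons of CS with AIR, *Clca1* was called lower in 3 and *Tff2* in 2, and *Muc5b*, *Spdef* and *Foxa3* were each called higher in 1. These comparisons share groups, and edgeR and DESeq2 gave other counts for some genes, as stated beside each comparison.

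**Figure D4:**
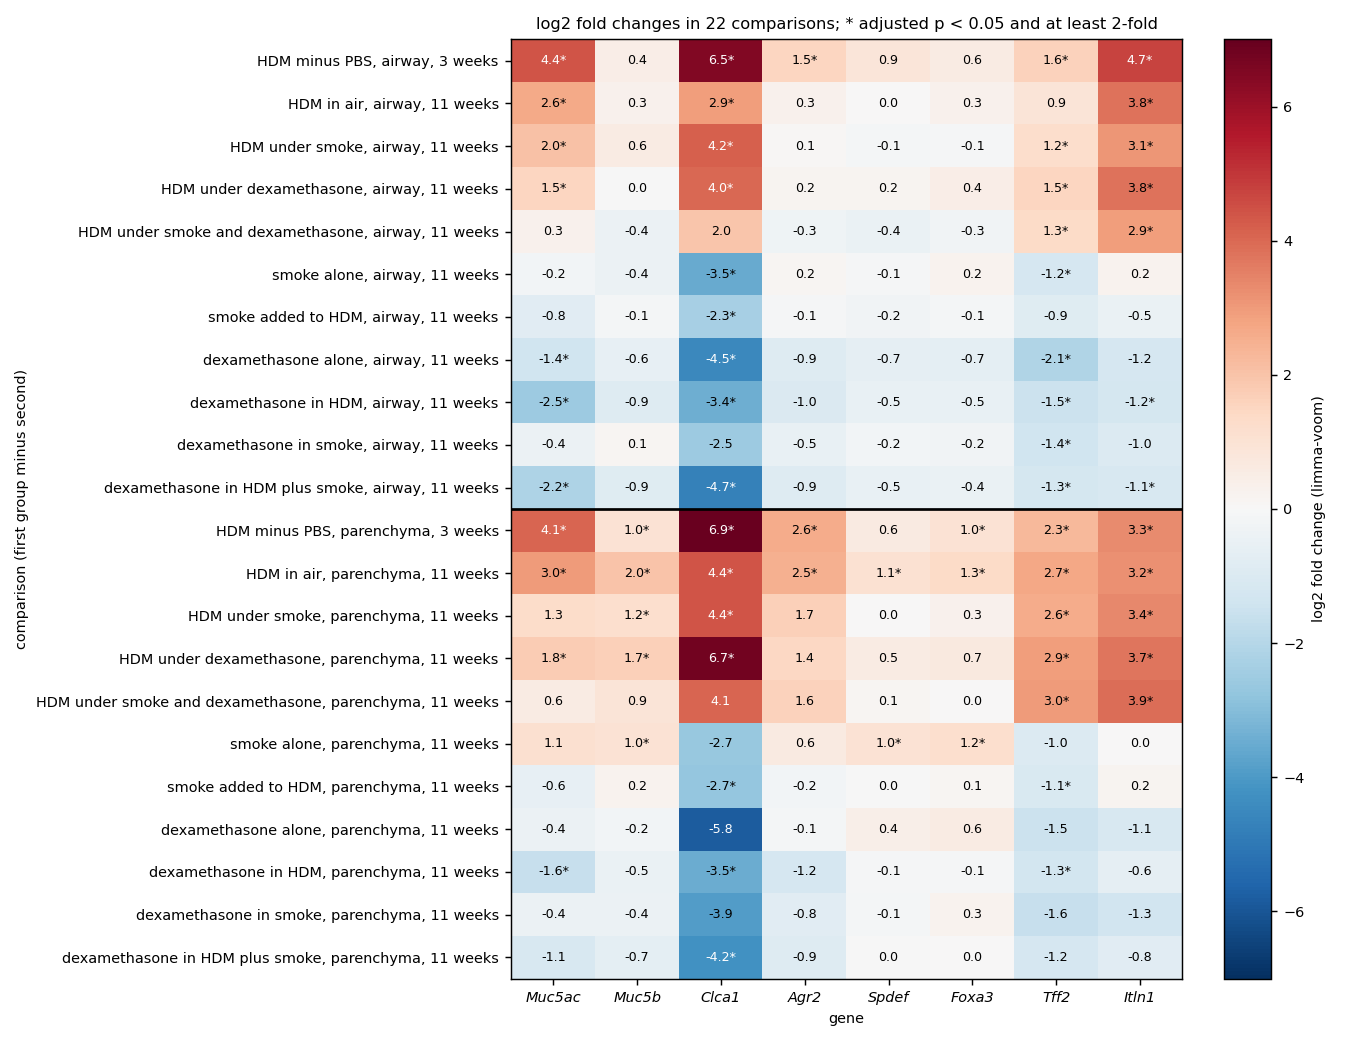
The log2 fold change of each gene (columns) is drawn as colour and printed in 22 comparisons (rows, airway above the line and parenchyma below), with a star on each call. The *Clca1* column runs from 6.9 in HDM parenchyma at 3 weeks to -5.8 for DEX alone in parenchyma, and the latter was not called.

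Libraries of one exposure group varied widely, and some of the genes varied together. Within the 10 HDM airway libraries at 3 weeks, log2 *Muc5ac* went with *Itln1* (Pearson r = 0.91, permutation p adjusted over 14 relations = 0.0036, Spearman rho = 0.90, adjusted p = 0.0055) and with *Clca1* (r = 0.89, rho = 0.88). Without the 2 libraries farthest from the median of *Muc5ac*, r was 0.84 for *Itln1* and 0.73 for *Clca1*, and neither passed any longer (permutation adjusted p = 0.129 for both). Its relation to *Tff2* was weakest (r = 0.57, permutation adjusted p = 0.083). Within the 10 airway libraries of HDM with AIR at 11 weeks, *Muc5ac* went with *Clca1* (r = 0.94, permutation adjusted p = 0.00084, rho = 0.94, adjusted p = 0.0028), and r was 0.94 again without the 2 farthest libraries. For *Itln1* at 11 weeks r was 0.72 and only 0.067 without those 2 libraries, so the relation rested on them.

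The airway libraries also differed widely in basal cell markers. Over all 101 airway libraries, each set against its own group mean, the log2 basal marker sum went with *Agr2* (r = 0.89), *Foxa3* (0.82), *Tff2* (0.80), *Itln1* (0.79), *Spdef* (0.79), *Muc5b* (0.72), *Muc5ac* (0.54) and *Clca1* (0.45). Labels were permuted within groups 100000 times over a family of 32 relations, and for these 8 the permutation p was 1e-05, the smallest it can be (adjusted p = 2e-05). The relations were not particular to basal cell markers. With smooth muscle markers r lay between 0.37 (*Clca1*, permutation adjusted p = 0.000366) and 0.60 (*Foxa3*). With club cell markers it lay between 0.22 (*Clca1*, permutation adjusted p = 0.0524) and 0.53 (*Tff2*). With pan-epithelial markers r lay between -0.006 and 0.18. These relations were computed after the data had been seen. Their part in the differences between groups was not tested. In airway at 3 weeks the basal sum had a median of 79.9 CPM in PBS (44.8 to 236) and of 34.2 CPM in HDM (12.1 to 242).

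**Figure D5:**
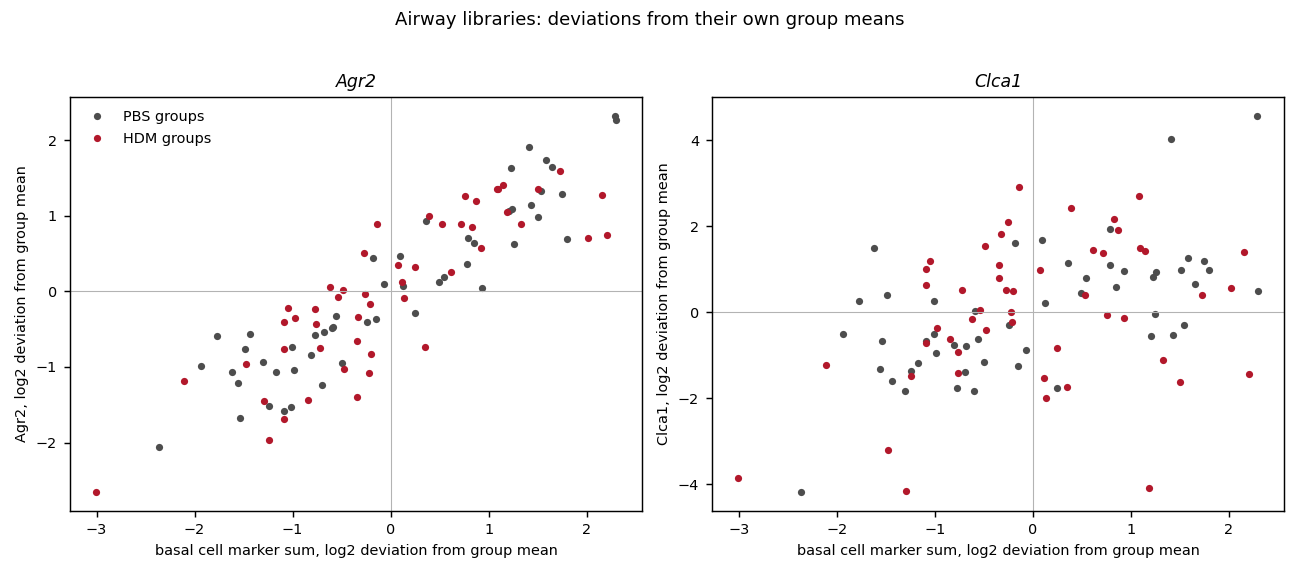
Deviations of log2 *Agr2* (left) and log2 *Clca1* (right) from their group means are plotted against that of the basal cell marker sum, a point per airway library. The *Agr2* points follow the basal sum closely (r = 0.89), and the *Clca1* points scatter around it (r = 0.45). These r values are those of the text, computed with other offsets before the log than the points plotted.

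Among 16068 genes outside the lists, those whose mean log2 CPM over the 20 groups followed the mean of the 8 genes most closely included *Ppif* (r = 0.97), *Ano7* (0.97), *Tprn* (0.96), *Fer1l6* (0.96), *Morc1* (0.96), *Scin* (0.96) and *Fam83f* (0.95). *Fer1l6* rose from a median of 3.45 CPM in PBS to 36.5 CPM in HDM airway at 3 weeks, and *Scin* from 2.38 to 22.01 CPM. Between the same groups *Ppif* went from 15.7 to 24.3 CPM, *Tprn* from 12.6 to 14.6 and *Morc1* from 1.54 to 2.78 CPM. *Ano7* went from 0.324 to 2.03 CPM and *Fam83f* from 1.99 to 5.39 CPM. The 20 means come from the same libraries, so these correlations describe the pattern only.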

How the data were processed

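Gene-level estimated counts for 203 airway and parenchyma libraries were analysed, with groups taken from the labels. Sequencing by the authors gave single reads of 100 bases, and per the labels and methods they used bcl2fastq 2.20.0.422, STAR 2.5.1b, RSEM 1.2.31, kallisto 0.44.0 and mm10. The table of estimated counts that the authors deposited is not scaled for library size or gene length, and which quantifier made it is not given in the sources used here. Of its non-zero values 20.3% were not whole, so values were rounded. Symbols came from GENCODE M21, matching 97.96% of identifiers without and 53.3% with their version. Reads shared between similar genes were divided by the quantification.

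TMM factors came from edgeR 4.0.16 and the voom fit from limma 3.58.1 (R 4.3.3), with one mean per group and Benjamini-Hochberg adjustment over all genes. Genes were kept where 9 or more libraries reached the CPM that 10 counts make in a library of median size, which left 17381 genes at 3 weeks, 18250 at 11 weeks and 18528 over all libraries, the fit used for differences between the weeks. Calls required an adjusted p under 0.05 and, except for interaction terms, a 2-fold change, a log2FC of 1 in either direction. On simulated data for HDM against PBS in airway at 3 weeks, the fit recovered 78 of 86 genes changed by a log2FC of 1.5 and 113 of 114 changed by 3. Apart from these changes each simulated gene had the same mean in all groups, so differences between tissues were not simulated. None of the 931 pairs of libraries within groups agreed within sampling noise, so each library counted once. Pairs of libraries from different groups were not compared. The labels do not say that libraries come from separate mice, so p-values measure the spread between libraries.

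The 8 genes and the gene lists (other mucins, co-secreted goblet proteins, folding and endoplasmic reticulum stress, O-glycosylation, regulators, granule exocytosis, ion transport, and club, basal, ciliated, tuft, submucosal gland, pan-epithelial, smooth muscle and alveolar type II markers) were chosen with earlier results of these data known. List genes were named if called in airway at 3 weeks, up to 3 in each direction, or if their HDM effect differed between tissues, and the most similar genes were the 8 highest by r, of which 1 is not reported here. As alternatives, DESeq2 1.42.0 and the quasi-likelihood test of edgeR were run, and DESeq2 size factors, sample quality weights, other filters and other sets of libraries were tried. Leaving out X5, X81 and X82 was chosen after seeing the data. Permutation tests were 2-sided, with 100000 resamples. Python 3.11.15 and scipy 1.17.1 were used.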

Additional observations from a re-analysis of the deposited data

Results flagged for a closer look

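The levels of each gene were searched for a single library far from the rest of its group, in the groups of 10 libraries only. In these, 5 were flagged, 3.47% of the gene and group pairs searched, where chance alone flags about 1 in 20. The PBS groups at 3 weeks, of 11 airway and 12 parenchyma libraries, were not searched, and the share does not cover them. X81 and X82, with the highest *Clca1* levels of those groups (441 and 179.2 CPM), were thus not tested. In parenchyma of HDM with AIR and DEX, X32 was the highest library for *Muc5ac*, at 12.5 CPM, and for *Muc5b*, at 205 CPM, and it also had the lowest total count of all libraries, 13003154. X173 was the highest for *Tff2* in parenchyma of PBS with CS, at 7.73 CPM. X57 was the lowest for *Tff2* in airway of HDM with CS, at 15.0 CPM. X109 was the lowest for *Itln1* in airway of HDM with AIR, at 10.1 CPM, and its basal marker sum of 4.19 CPM was the lowest of all airway libraries.

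Effects of HDM that differed between settings by an interaction test, as log2 differences, were these. At 11 weeks in AIR, airway less parenchyma gave -1.79 for *Tff2*, -1.05 for *Spdef*, -1.05 for *Foxa3* and -1.70 for *Muc5b*. In parenchyma at 11 weeks, CS less AIR gave -1.04 for *Spdef* and -1.04 for *Foxa3*, a count near the share of 18.7% of all genes. In airway, 11 weeks less 3 weeks gave -1.26 for *Agr2*, -0.89 for *Spdef*, -3.59 for *Clca1* and -1.81 for *Muc5ac*. The sizes of the HDM effect behind each of these stand in the report, and no cause was tested.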

How the results depend on the processing

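No paired analysis was made, because the labels do not say which airway and parenchyma libraries come from one mouse and no group shares replicate numbers with another. A fit paired by code order was not run. Over all alternatives, 2402 values of single genes were recomputed: 2269 stayed on their side of the threshold with their sign, or changed sign without a call, 100 came to pass it and 33 ceased to. Of these, 51 changed sign and none of them was a call. Mean levels under DESeq2 size factors stayed within 1 SD in 160 of 160 cases. Of 308 counts of genes called, 264 stayed within 1.5 times, and 44 did not. The cause of these changes was not tested.

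With a filter at 10 CPM in 9 libraries, *Spdef* and *Foxa3* dropped out, and of the remaining genes 3 were called higher in airway in PBS at 3 weeks and 5 at 11 weeks, and in parenchyma 5 for HDM in AIR, 2 for HDM under CS, 3 under DEX and 1 under both, 1 for CS alone, 0 for DEX in HDM with CS, 0 for HDM by CS, 2 for the tissue difference at 11 weeks and 1 for the difference between weeks. With edgeR and with DESeq2 the counts were 5 for DEX alone and 2 for DEX in CS in airway, 1 for HDM by CS in airway, and in parenchyma 4 for HDM under CS and DEX, 3 for DEX alone, 3 for DEX in HDM with CS, 2 (edgeR) or 3 (DESeq2) for DEX in CS and 1 for the difference between weeks, and DESeq2 gave 1 for HDM by DEX in parenchyma. Sample quality weights gave 3 for CS added to HDM, 1 for HDM by CS and 1 for HDM by DEX in airway, and 2 for DEX alone, 3 for DEX in HDM with CS and 2 for the difference between weeks in parenchyma. With one tissue and week in the fit, parenchyma gave 2 for DEX alone, 2 for DEX in CS, 3 for DEX in HDM with CS and 4 for HDM by CS, and with both times in one fit 0 for HDM by CS. Without a filter, parenchyma gave 1 for DEX alone and 0 for DEX in HDM with CS. Without X173 and X174, CS alone in parenchyma gave 1. Without X5, X81 and X82, CS alone in airway gave 1 and the difference between weeks in parenchyma 1.

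Without the 2 libraries farthest from the median of *Muc5ac*, 12 of its correlations no longer passed: at 3 weeks with *Muc5b* (r = 0.53), *Clca1* (0.73), *Agr2* (0.55), *Spdef* (0.61), *Foxa3* (0.46) and *Itln1* (0.84), and at 11 weeks with *Muc5b* (0.51), *Agr2* (0.36), *Spdef* (0.71), *Foxa3* (0.53), *Tff2* (0.57) and *Itln1* (0.067). Depth limited *Spdef* and *Foxa3* in parenchyma and *Clca1* in the PBS groups with DEX, where counts were lowest.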

Other observations

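Airway and parenchyma libraries with consecutive codes were set side by side, although the labels do not say that such codes come from one mouse, and all tests between tissues treated libraries as independent. Over the 10 pairs of HDM at 3 weeks, log2 levels in airway and in the parenchyma library of the next code had r = 0.94 for *Clca1* (permutation p adjusted over 16 relations = 0.0014, rho = 0.87, adjusted p = 0.034), r = 0.80 for *Itln1* (permutation adjusted p = 0.025, rho = 0.79, adjusted p = 0.067) and r = 0.78 for *Muc5ac* (permutation adjusted p = 0.053, rho = 0.73, adjusted p = 0.08). Without the 2 farthest libraries r was 0.81, 0.70 and 0.41. Over the 10 pairs of HDM with AIR at 11 weeks, r was 0.83 for *Clca1* (permutation adjusted p = 0.025, rho = 0.76, adjusted p = 0.079) and 0.898 without the 2 farthest, while that of *Itln1* was -0.046. The other 11 relations had adjusted p of 0.089 or more. These relations were computed after the data had been seen, and no fit used the code order.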
